A study of Homo sapiens with 6 samples.

Results

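The T-cell receptor gamma genes described here are TRGC1, TRGC2, TRGV1 and TRGV2, which lie in the gamma locus on the short arm of chromosome 7. They are 4 of the 21 gamma variable, joining and constant segments that have a row in the expression tables, and 4 of 60611 genes kept in all. The members were chosen by their FPKM (fragments per kilobase of transcript, scaled to the mapped fragments of the library) in the WT and IK-KO libraries of this experiment. Their difference between the groups is therefore a description, given without a test.

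The samples were polyA RNA-seq libraries of Molt4, a long-established human cell line of T-cell acute lymphoblastic leukemia (T-ALL), also written MOLT-4. The 3 WT libraries came from the cells labelled as the CRISPR knockout control, with no allele named. The 3 IK-KO libraries came from cells in which IKZF1, the gene of the zinc finger protein IKAROS, was targeted with CRISPR-Cas. Both were grown in RPMI1640 with 10% FBS and received no other treatment named in the labels. The edited and control cells were bought from a supplier. The study's supplement blots a pair of knockout clones, but the labels name no clone, so a difference between clones and an effect of the edit cannot be told apart. Nothing in the labels ties a replicate to its own culture, so p-values measure only the spread between these libraries, which may be technical.

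The gamma chain pairs with the delta chain to form the receptor of gamma-delta T cells. Its gene is assembled in the thymus, where the RAG recombinase joins a variable to a joining segment at recombination signals, each a heptamer and a nonamer with a spacer between them, and the joined exon is then spliced to a constant gene. The gamma locus opens early in T-cell development under the IL7 receptor and STAT5, and many cells that go on to make an alpha-beta receptor keep a rearranged gamma locus.

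All 4 members are read from the minus strand of hg38. TRGV1 (ENSG00000211701, chr7:38367586-38368169) is the most upstream, and TRGV2 (ENSG00000233306, chr7:38362864-38363518) follows it after a gap of 4067 bases. Both are variable genes with 2 exons. TRGC1 (ENSG00000211689, chr7:38257879-38265678) and TRGC2 (ENSG00000227191, chr7:38239580-38249572) are constant genes, with 3 and 4 exons in GENCODE 44 and the joining segments TRGJ1 and TRGJ2 upstream of them. All 21 segments have the same position in the tables and in GENCODE 44. No base of a member's exons lies under an exon of the antisense gene TRG-AS1.

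The sequences that decide how far the members can be told apart come first. The starts of the first constant exons are shown because the constant genes are the pair most alike, with the bases that differ in capitals (TRGC1 at chr7:38265559-38265678, TRGC2 at chr7:38249453-38249572, both minus strand).
TRGC1: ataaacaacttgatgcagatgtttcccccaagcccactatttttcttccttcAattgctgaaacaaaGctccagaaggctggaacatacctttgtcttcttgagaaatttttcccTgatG
TRGC2: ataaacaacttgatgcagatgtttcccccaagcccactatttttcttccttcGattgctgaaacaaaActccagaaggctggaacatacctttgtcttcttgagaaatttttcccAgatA
Over these 120 bases the constant genes differed at 4 positions. Over the whole exon of 330 bases they differed at 6, an identity of 98.2%.

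The recombination signals behind both variable members are shown with that of TRGV4, the only other variable segment listed above 0, with heptamer and nonamer in capitals (TRGV1 at chr7:38367547-38367585, TRGV2 at chr7:38362825-38362863, TRGV4 at chr7:38353676-38353714, minus strand).
TRGV1: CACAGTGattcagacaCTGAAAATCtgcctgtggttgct
TRGV2: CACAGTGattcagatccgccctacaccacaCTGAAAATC
TRGV4: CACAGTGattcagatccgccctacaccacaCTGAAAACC
The heptamer and nonamer were 23 bases apart in TRGV2 and TRGV4. In TRGV1 the first nonamer match came 9 bases after the heptamer. That is neither the 23 bases of TRGV2 and TRGV4 nor the 12 of the joining segments. The TRGV1 stretch as marked is therefore not a signal of that form, and its use was not tested. The joining segments TRGJ1 (chr7:38269491-38269540) and TRGJ2 (chr7:38253380-38253429), both 50 bases long, had 1 sequence between them.
TRGJ1 and TRGJ2: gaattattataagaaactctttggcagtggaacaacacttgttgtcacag
Their signals were also identical, with a spacer of 12 bases.

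The targeted gene was examined first. IKZF1 stood at 134, 124 and 105 FPKM in WT replicates 1 to 3 and at 207, 260 and 207 FPKM in the replicates labelled IK-KO. It was higher in IK-KO in 3 of 3 libraries, by 0.89 ± 0.12 (SE) on the log2(FPKM + 1) scale (limma adjusted p = 0.00295), which goes against a loss of the RNA. Gene-level FPKM does not read the edited site, so it checks neither the edit nor the protein. The study's supplement reports that the knockout was checked by PCR and western blot, though the labels name no clone. Every direction given here rests on the libraries as labelled IK-KO. All 15 cortical T-lineage markers had rows and all 15 passed the filter on low values, a mean over the libraries of FPKM 1 or more. The largest falls among them were those of CD2, CD28 and CD7, surface proteins of T cells. B cell, myeloid and erythroid markers summed to no more than 3.77, 0.617 and 0.688 FPKM in any library, and the NK list to no more than 5.73. Rows above 0 numbered 21800 to 21887 in the WT libraries and 21254 to 21785 in the IK-KO libraries, which did not overlap, and the part of this in the gamma values was not tested. Mitochondrial genes held 13.0% to 14.4% of the summed FPKM, with overlapping ranges in the groups. The tables give no counts, so library depth is unknown.

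TRGV2 was the highest of the 4 members in every library. It stood at 8.07, 6.15 and 5.18 FPKM in WT replicates 1 to 3, while the replicates labelled IK-KO held 16.0, 20.6 and 19.2 FPKM. The groups did not overlap, and neither did the confidence bounds in the tables, which reached 10.5 FPKM at most in WT and came down to 12.3 FPKM at least in IK-KO. The means were 6.47 ± 1.47 (SD, n = 3) and 18.6 ± 2.36 FPKM (SD, n = 3), a ratio of 2.88, and the difference on the log2(FPKM + 1) scale was 1.40 ± 0.19 (SE). In bulk RNA, more cells that express a gene and more RNA per cell cannot be told apart.

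TRGC2, the constant gene farthest downstream, was at 4.23, 4.59 and 4.73 FPKM in the WT libraries and at 10.5, 11.1 and 12.3 FPKM in the IK-KO libraries. Its means were 4.52 ± 0.256 FPKM in WT and 11.3 ± 0.946 FPKM in IK-KO (SD, n = 3 each). The ratio of the means was 2.50, and the log2 difference was 1.15 ± 0.08 (SE). Again neither the values nor the confidence bounds of the groups overlapped, with 5.89 FPKM as the highest upper bound in WT and 8.74 FPKM as the lowest lower bound in IK-KO.

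TRGC1, the other constant gene, was lower than TRGC2 in every library. It was at 0.984, 0.901 and 0.601 FPKM in WT and at 2.78, 3.05 and 3.44 FPKM in IK-KO. Its means were 0.829 ± 0.202 and 3.09 ± 0.335 FPKM (SD, n = 3 each), a ratio of 3.73 and a log2 difference of 1.16 ± 0.12 (SE). The highest upper bound in WT was 1.26 FPKM and the lowest lower bound in IK-KO was 2.30 FPKM. Because 1 is added before the log, the log2 difference of TRGC1 is close to that of TRGC2 although its ratio of means is larger.

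TRGV1, the most upstream segment, was listed at 0.542 FPKM in WT replicate 1 and at 0 in WT replicates 2 and 3. The replicates labelled IK-KO held 2.12, 3.21 and 3.85 FPKM. The values did not overlap, but the upper bound of WT replicate 1 (1.31 FPKM) lay above the lower bound of IK-KO replicate 1 (0.518 FPKM). A value listed at 0 came with bounds of 0 and is no measure of how low the level was.

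**Figure D1:**
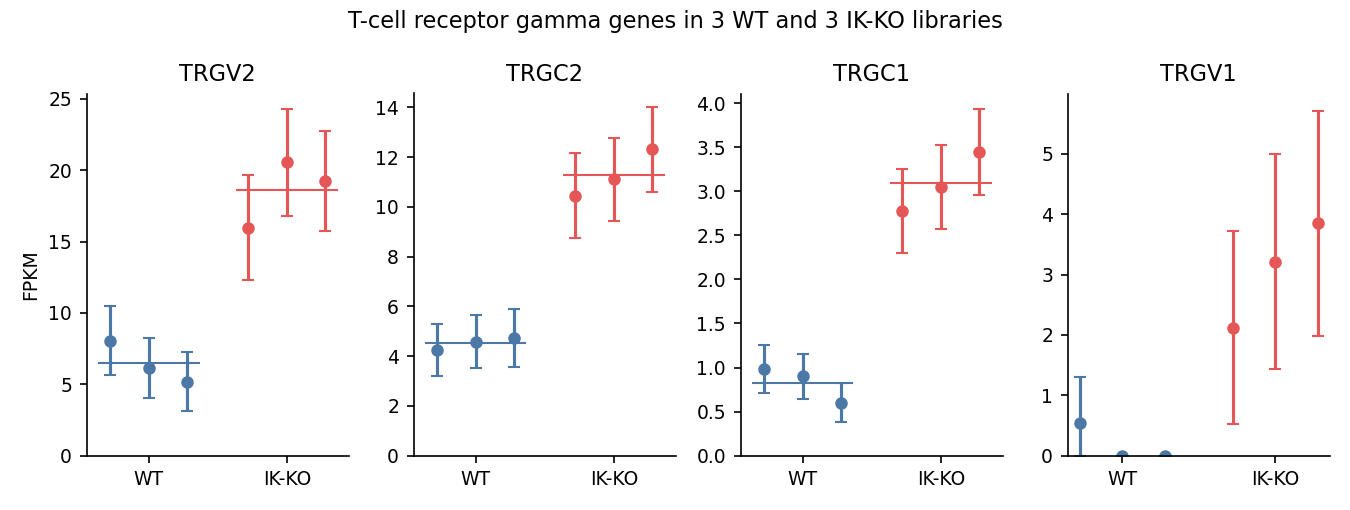
FPKM of TRGV2, TRGC2, TRGC1 and TRGV1 in 3 WT and 3 IK-KO libraries (1 point per library, bars: confidence bounds in the tables, horizontal lines: group means, left out for TRGV1, where WT replicates 2 and 3 were listed at 0). In each panel the 3 IK-KO points lie above the 3 WT points, and only for TRGV1 do the bars of the groups overlap.

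In WT the order of levels was TRGV2, TRGC2, TRGC1 and TRGV1, and the ranges of the 4 members did not overlap, although the confidence bounds of TRGV2 and TRGC2 did, and so did those of TRGC1 and TRGV1, whose single WT value above 0 lay under a detection floor of 3 fragments. In IK-KO the ranges of TRGC1 and TRGV1 overlapped, so these were not ordered there. All 4 members had IK-KO values above every WT value. Of the 12652 genes that passed the filter and were tested, 20.9% did so. With limma, 19.9% of tested genes were called at an adjusted p under 0.05, 10.1% higher and 9.75% lower in IK-KO. Since the members were selected on this contrast, nothing is read from their count. All 4 passed the filter on mean FPKM, but TRGC1 and TRGV1, with WT means under 1, passed it only through the IK-KO libraries.

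The confidence bounds also imply a fragment number for a value. The upper bound was taken as the FPKM plus 2 FPKM divided by the square root of that number. For TRGV1 this gave 2, 0 and 0 fragments in WT replicates 1 to 3 and 7, 13 and 17 in the IK-KO replicates, each within 0.006 of a whole number. Summed, these are 2 fragments, all in WT replicate 1, against 37. No ratio is given, since the WT number lies under the floor of 3 fragments. That floor was 0.679 to 0.909 FPKM in the libraries with TRGV1 fragments, and the single WT value lay under it.

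The other members had larger implied fragment numbers. TRGV2 had 25 to 43.4 implied fragments in WT and 76.0 to 121 in IK-KO. TRGC2 had 65.4 to 75.7 and 149 to 210, and TRGC1 had 30.0 to 52.4 and 135 to 199. Over the 4 members the implied number was 122 to 163 in WT and 367 to 547 in IK-KO. Several of these values were not whole, and the reason was not tested. For some other genes the implied number was clearly no count. RALA, at 17.4 and 18.1 FPKM in WT replicates 1 and 2, gave 144 and 610, and AMPH gave 0.24 in WT replicate 1. Values that are not whole are therefore a rough guide only.

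The members share sequence, most of all the constant genes. Of the 50-base words in the transcript of TRGC2, 44.7% also occurred in TRGC1, against 16.1% of those of TRGC1 in TRGC2, whose transcript of 2730 bases is longer than the 1013 bases of TRGC2. Of the words of TRGV2, 27.7% also occurred in other gamma variable segments, and of those of TRGV1, 16.6%. The main variable exon of TRGV2 was 95.2% identical to that of TRGV4 and 87.1% identical to that of TRGV1. How the quantification treated fragments that match several segments is not given, so the level of each member is uncertain. A sum over like genes depends on it too. In WT replicate 1, an implied fragment stood for 0.0188 FPKM in TRGC1 and 0.0647 FPKM in TRGC2.

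Summed, TRGC1 and TRGC2 stood at 5.35 ± 0.136 FPKM in WT and 14.4 ± 1.28 FPKM in IK-KO (SD, n = 3 each), a ratio of 2.69. The log2 difference of the sum was 1.27 ± 0.07 (SE). The sum over all 14 gamma variable segments ranged up to 8.61 FPKM in WT and from 18.2 FPKM in IK-KO, with a log2 difference of 1.59 ± 0.22 (SE).

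Proportions among the members were also read per library. TRGC2 was 4.30, 5.09 and 7.88 times TRGC1 in the WT libraries and 3.76, 3.64 and 3.58 times TRGC1 in the IK-KO libraries. These ratios did not overlap, but they carry no confidence bounds, and TRGC1 was at most 0.984 FPKM in WT. In implied fragments the closest ratios were 1.25 in WT replicate 1 and 1.10 in IK-KO replicate 1. How fragments shared by the constant genes were assigned is not given, so no change in their use is read from these ratios. TRGV2 relative to the summed constant genes was 1.55, 1.12 and 0.972 in WT and 1.21, 1.45 and 1.22 in IK-KO, which overlapped. In IK-KO, TRGV2 made up 83.3% to 87.7% of the variable segment FPKM. Its share in WT is not given, since TRGV1 was at or under the floor in every WT library.

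Of the 17 gamma segments that are not members, 16 were listed at 0 in all 6 libraries. The exception was TRGV4, at 0.129 and 0.330 FPKM in IK-KO replicates 1 and 2, which correspond to 1 and 3 implied fragments and lie at or under the floor. All 5 gamma joining segments were listed at 0, but so were all 105 joining segments of all receptor loci in the tables, so a 0 for these short rows says nothing on their use. The antisense gene TRG-AS1 was listed at 0 as well. A 0 in these tables is not proof of absence. POLL, a DNA polymerase of end joining, was also listed at 0 in all WT libraries, and at 0.282, 0.034 and 0.234 FPKM in IK-KO. Whether WT cells express POLL was not tested, so its 0 does not settle how a 0 should be read.

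**Figure D2:**
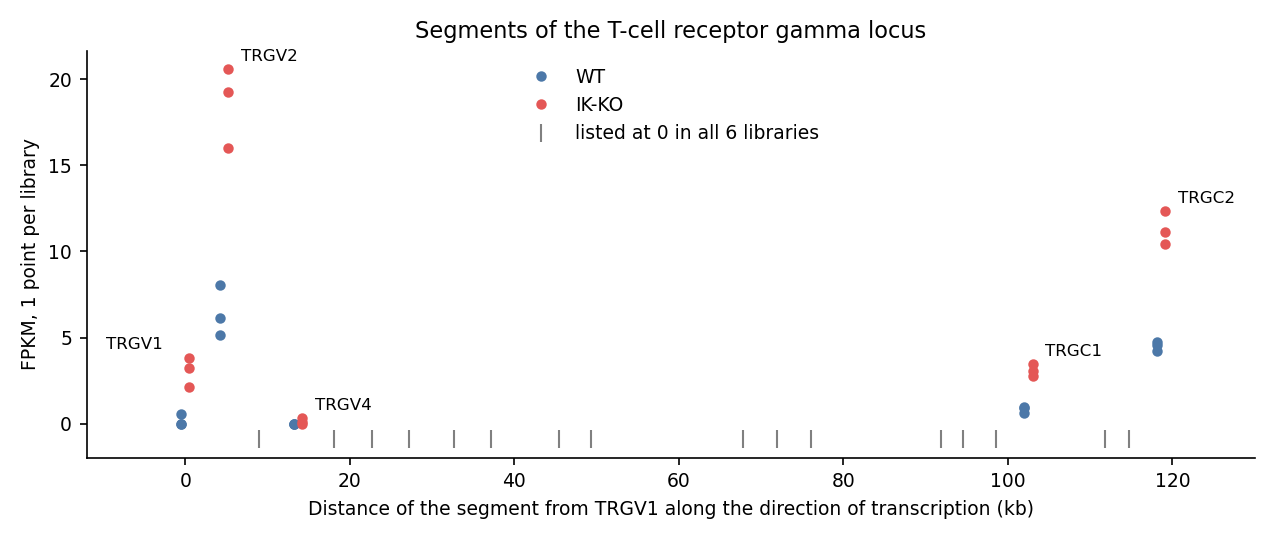
FPKM of the gamma segments against their distance from TRGV1 in kb, counted along the direction of transcription, with 1 point per library. TRGV1 and TRGV2 lie at one end and TRGC1 and TRGC2 at the other, over 100 kb away, and the 16 segments listed at 0 in all libraries (grey ticks) fill the space between, with TRGV4 the single further segment above 0.

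Upstream of the variable members, the 250 bases before each annotated start were searched on both strands for the letters TGGGAA (the core of the IKAROS motif), TTCNNNGAA (the STAT5 motif) and CAGCTG (an E-box, bound by E proteins). Neither window held TGGGAA or TTCNNNGAA, which 20.8% and 6.6% of 35116 RefSeq promoter windows of the same length (hg38) hold. Each held CAGCTG once, 166 bases before the start of TRGV1 and 94 before that of TRGV2, against 14.0% of all windows. The match lies in the longest run that both windows share, 33 bases with CAGCTG in capitals (TRGV1 at chr7:38368317-38368349, TRGV2 at chr7:38363594-38363626, minus strand).
TRGV1 and TRGV2: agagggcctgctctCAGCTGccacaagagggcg
Of the windows before all 14 gamma variable segments, 5 held CAGCTG, those of TRGV1, TRGV2, TRGV3, TRGV5 and TRGVA. TRGV3, TRGV5 and TRGVA were listed at 0 in all libraries. A match is a description of the letters and not a bound site.

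Among 10 flanking genes with rows, 5 were tested, and 2 of those were called higher and none lower, with a median log2 difference of 0.00 against 0.02 over all tested genes. STARD3NL, a protein of late endosomes and the nearest gene on the constant side at 8.9 kb, was at 23.7, 21.7 and 21.0 FPKM in WT and at 31.9, 33.0 and 33.3 FPKM in IK-KO, a log2 difference of 0.55 ± 0.07 (SE, limma adjusted p = 0.00188). EPDR1, 287.6 kb away on the same side, rose by 0.63 ± 0.10 (SE, limma adjusted p = 0.00571). AMPH, the nearest gene on the variable side, was under 0.1 FPKM in all libraries. VPS41, YAE1 and RALA farther along that side were not called, with log2 differences of 0.00, -0.07 and -0.02.

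The partner chain was not seen. All 11 delta segments, among them the constant gene TRDC, were listed at 0 in the 6 libraries. The joining and D segments are short rows, whose 0 says nothing on their use. What was not seen is therefore TRDC and the variable segments. The other chains went different ways. TRAC, the alpha constant gene, fell by 1.95 ± 0.15 (SE) on the log2 scale, from 9.10, 9.78 and 7.86 FPKM in WT to 1.99, 1.47 and 1.25 FPKM in IK-KO (limma adjusted p = 0.000235). Thus in WT replicates the alpha constant gene stood above TRGC2, whereas in the IK-KO replicates TRGC2 stood above it.

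TRBC2, the second beta constant gene, was the most abundant receptor constant gene at 3225 to 3456 FPKM in WT and 3960 to 4260 FPKM in IK-KO, a rise of 0.29 ± 0.05 (SE, limma adjusted p = 0.00568). TRBC1, which is nearly identical to it in sequence and so uncertain, was at 1.73 to 2.83 FPKM in WT and 1.42 to 2.82 FPKM in IK-KO and was not called. The gamma members stood far below the beta chain in both groups.

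Of the 5 genes of the CD3 chains and pre-TCR alpha, which carry receptor chains to the surface and signal for them, 4 were called higher and none lower, with a median log2 difference of 0.65. The 4 calls fell to 2 when WT replicate 2 or either of IK-KO replicates 2 and 3 was left out, and likewise without the filter on low values. CD247, the zeta chain, rose from 65.0, 66.6 and 66.5 FPKM to 232, 262 and 243 FPKM, by 1.88 ± 0.06 (SE, limma adjusted p = 7.79e-06). CD3G rose by 0.65 ± 0.08 (SE, limma adjusted p = 0.00158). CD3D rose by 0.44 ± 0.11 (SE, limma adjusted p = 0.0338), and the call was lost without WT replicate 1 or 2 or IK-KO replicate 2 or 3, at values of 0.37, 0.44, 0.36 and 0.40. PTCRA, the surrogate alpha chain, rose by 0.69 ± 0.19 (SE, limma adjusted p = 0.0466), a call lost with the replicate block at 0.69 and without any single library other than WT replicate 1, at values between 0.55 and 0.79. CD3E differed by -0.09 ± 0.05 (SE) and was not called.

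Among the 15 tested genes of V(D)J recombination and end joining, 1 was called higher and 5 lower, with a median log2 difference of -0.04. The 6 calls fell to 3 without WT replicate 1 or 3 or without the filter on low values, and to 2 without WT replicate 2. The 3 largest differences were falls in the genes that cut and extend the segments. RAG1, a subunit of the recombinase, went from 60.8, 60.6 and 53.7 FPKM to 17.0, 15 and 17.8 FPKM, a log2 difference of -1.75 ± 0.08 (SE, limma adjusted p = 5.07e-05). DNTT, the terminal transferase that adds bases at the joints, had a log2 difference of -1.67 ± 0.07 (SE, limma adjusted p = 2.06e-05). RAG2, the other subunit, fell by 0.81 ± 0.20 (SE, limma adjusted p = 0.0289). The RAG2 call was lost without any of the WT replicates or IK-KO replicate 3, at values of -0.90 to -0.75.

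**Figure D3:**
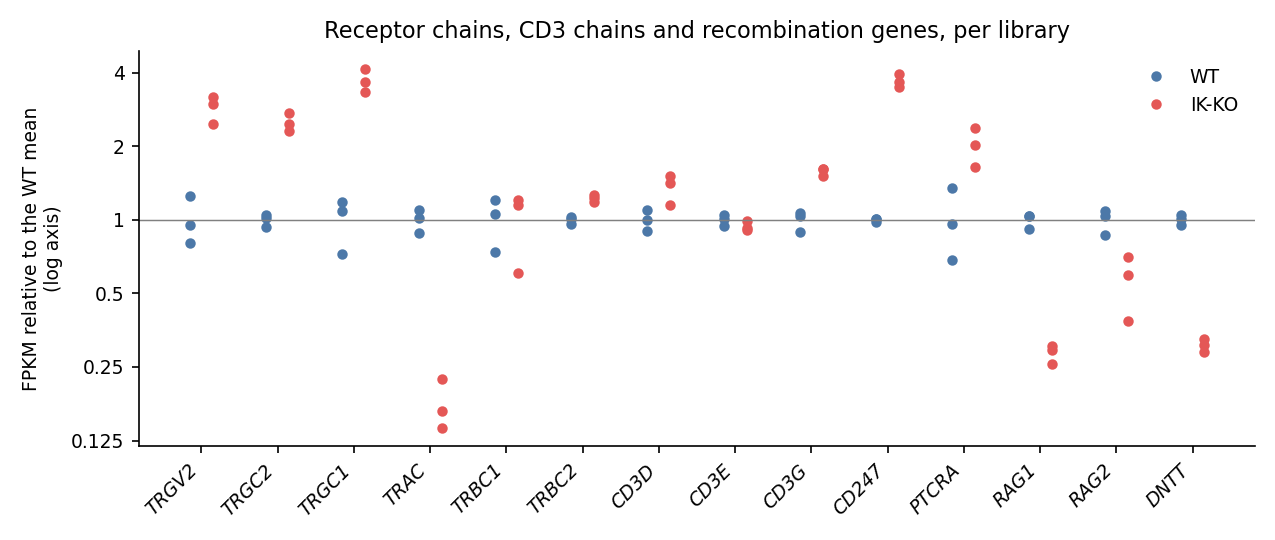
FPKM of TRGV2, TRGC2, TRGC1, the alpha and beta constant genes, the CD3 chains, PTCRA, RAG1, RAG2 and DNTT in each library, relative to the WT mean of the same gene (log axis, 1 point per library). TRGC1 and CD247 reach the highest ratios, TRAC the lowest, and CD3E and TRBC1 overlap between the groups.

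The IL7 receptor, the upstream signal of the locus in early T cells, was under 0.4 FPKM in all 6 libraries (IL7R, not tested). Of the 12 tested genes of its pathway, 5 were called higher and 2 lower, with a median log2 difference of 0.24. SOCS2, a feedback inhibitor induced by STAT5, went from 0.599, 1.28 and 0.95 FPKM to 4.81, 4.33 and 3.01 FPKM, a rise of 1.38 ± 0.20 (SE, limma adjusted p = 0.00427). JAK3, the kinase bound to the common gamma chain of cytokine receptors, had a log2 difference of -1.16 ± 0.09 (SE, limma adjusted p = 0.000309). CISH, another feedback inhibitor, rose by 0.85 ± 0.17 (SE, limma adjusted p = 0.0135), and the call was lost without IK-KO replicate 2, at 0.79. STAT5A, the other gene called lower, had a log2 difference of -0.405 ± 0.04 (SE, limma adjusted p = 0.000755). STAT5B was not called.

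Of the 20 tested transcription factors listed for gamma enhancers and promoters, 8 were called higher and 3 lower, with a median log2 difference of 0.18. ID1, an inhibitor of E proteins, showed the largest difference, from 35.6, 40.3 and 28.3 FPKM to 119, 118 and 110 FPKM (1.72 ± 0.12 SE, limma adjusted p = 0.00019). ETV5, an ETS factor, rose by 1.07 ± 0.16 (SE, limma adjusted p = 0.00407). TAL1, a partner of E proteins that is active in T-ALL, fell by 0.86 ± 0.08 (SE, limma adjusted p = 0.000736).

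Of the 26 genes of the gamma-delta lineage list, 13 were tested. Among these, 9 were called higher and none lower, with a median log2 difference of 0.49. The list also holds butyrophilin genes (BTN), which are not markers of the lineage itself. BTN2A1, BTN3A1 and BTN3A2 were among the 9, at log2 differences of 0.64, 0.48 and 0.48. CCR9, a homing receptor of thymocytes and gut T cells, rose from 57.9, 54.6 and 55.6 FPKM to 150, 152 and 148 FPKM (1.41 ± 0.05 SE, limma adjusted p = 8.93e-06). ETV5 belongs to this list too. SOX13, a factor of gamma-delta precursors, was under 1 FPKM in all libraries, as were ZBTB16 and KLRB1, and these were not tested. These 3 were named after their values were seen.

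**Figure D4:**
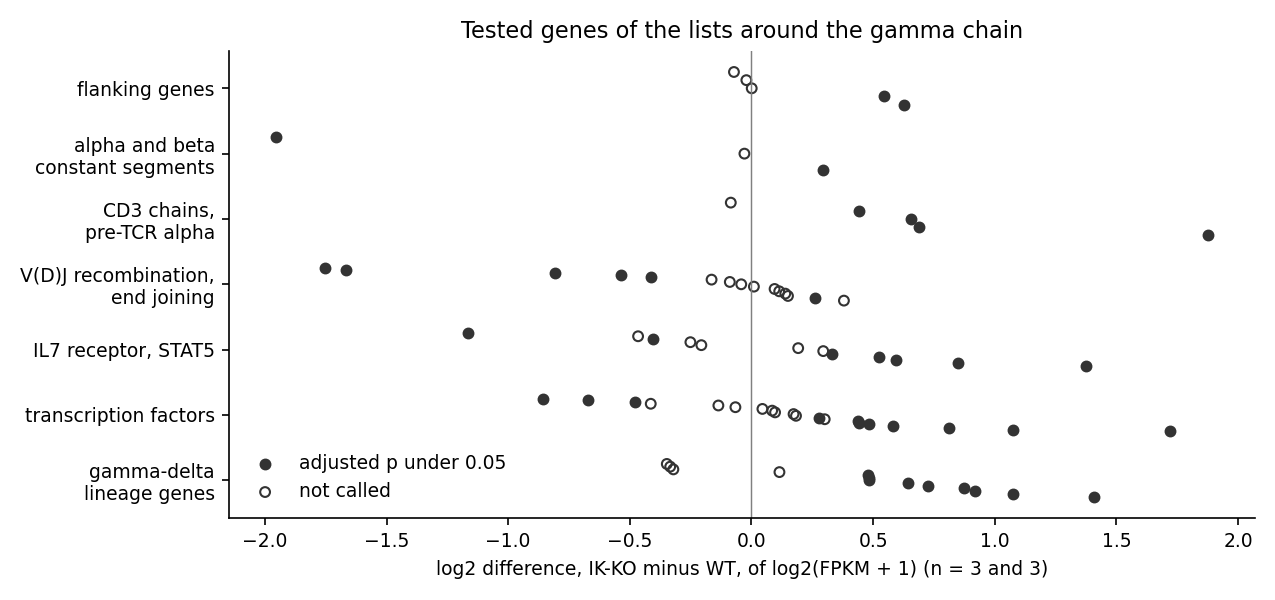
Difference in log2(FPKM + 1) between IK-KO and WT (n = 3 each) for every tested gene of the lists around the gamma chain, 1 point per gene, filled where the limma adjusted p is under 0.05. CD247, ID1 and CCR9 lie farthest to the right and TRAC, RAG1 and DNTT farthest to the left.

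The T-lineage markers differed between the groups beside the gamma members. Of the 15 cortical T-lineage markers, 4 were called higher and 8 lower, with a median log2 difference of -0.80. Their sum was 926 to 1008 FPKM in WT and 788 to 817 in IK-KO. Those called higher were CD1A, CD1C, CD1D and ZAP70, with log2 differences of 0.86, 1.39, 1.16 and 0.30. The CD1 genes did not move together, since CD1B and CD1E were called lower, with log2 differences of -0.80 and -1.53. CD2 showed a log2 difference of -3.35 ± 0.07 (SE, limma adjusted p = 1.41e-06), CD28 of -2.50 ± 0.14 (limma adjusted p = 0.0001) and CD7 of -1.72 ± 0.14 (limma adjusted p = 0.000412). The part of these differences in the gamma values was not tested.

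The 5 tested genes whose profile over the 6 libraries was most like that of the summed gamma constant genes were found by the root mean square difference of log2(FPKM + 1), each centred on its own mean. They were CD1C and CD1D, which present lipids, at 0.066 and 0.067, IGFBP2, which binds insulin-like growth factors, at 0.083, OPN3, an opsin, at 0.086, and CORO1B, an actin-binding coronin, at 0.107. CD1C stood at 22.9, 23.0 and 22.2 FPKM in WT and at 55.7, 62.1 and 66.4 FPKM in IK-KO. CD1D stood at 15.8, 16.5 and 15.4 FPKM against 34.6, 37.0 and 38.6 FPKM. Both CD1C and CD1D are among the cortical T-lineage markers called higher, whereas CD1B and CD1E of that list were called lower. These profiles mostly hold the difference between the groups, and none of the 5 genes lies on chromosome 7.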

How the data were processed

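PolyA RNA-seq of 3 WT and 3 IK-KO libraries was analysed. Groups and replicate numbers came from the labels. The authors deposited 1 table of FPKM per library with confidence bounds, in the layout of Cufflinks. The submitters' processing notes name STAR 2.6.1c, Cufflinks 2.2.1, HOMER 4.10 and hg38. The annotation and strand setting are not given in the sources used here, so genes with an antisense partner cannot be told apart by strand. Each table has 60752 rows; rows of 1 identifier were summed (110 identifiers) and 29 identifiers not estimated in a library were left out, leaving 60611. The FPKM are scaled for transcript length and depth by the authors, and total depth is unknown.

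Differences were computed on log2(FPKM + 1), which understates changes of low genes, with limma 3.58.1 in R 4.3.3 (lmFit, eBayes with a trend, two-sided, Benjamini-Hochberg over the 12652 genes whose FPKM averaged 1 or more), and the fit was tested on simulated data. Fragments were implied from the upper bounds. Alignments used Biopython 1.88. Sequences were read from hg38 and GENCODE 44, and promoter windows from RefSeq.

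The members and gene lists were chosen with earlier results of these data known, so lists are described by counts and medians without a set test. Named were the members, the other gamma segments, the nearest flanking genes, IKZF1, set receptor, CD3 and recombination genes, the 3 called genes of each list with the largest difference, and the 5 genes of most similar profile. Others were named after their values were seen. A few genes that this rule would name, and 1 marker list, are not reported here. Same-numbered libraries correlated by 0.067, 0.025 and 0.005 in their deviations from the group means, so the numbers did not pair the libraries. The alternatives were a pseudocount of 0.1, quantile or median-of-ratios scaling, no filter, a 2-fold limit, each library left out, the replicate block, the confidence bounds and sums over like genes.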

Additional observations from a re-analysis of the deposited data

How the results depend on the processing

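The differences of TRGC1, TRGC2, TRGV1 and TRGV2 stayed positive under every alternative run. The members were chosen on this contrast and their values did not overlap between the groups. Leaving out a library or changing the pseudocount could therefore not turn the sign, and the kept sign is no further support. With a pseudocount of 0.1 in place of 1, the log2 difference was 1.80 for TRGC1, 1.30 for TRGC2 and 4.05 for TRGV1, a smaller constant weighing low values more. For TRGV1, listed at 0 in WT replicates 2 and 3, the size of any log2 difference depends on the constant and is no measured fold. With the lower confidence bound in place of the FPKM it was 1.26 for TRGC2 and 1.15 for TRGV1, and with TRGC1 and TRGC2 summed it was 1.27. Leaving out 1 library gave 1.07 to 1.23 for TRGC1, 1.10 to 1.20 for TRGC2, 1.65 to 2.0 for TRGV1 and 1.28 to 1.55 for TRGV2. Over all genes 2515 were called, 404 with a 2-fold limit and 1805 with the replicate block; leaving out 1 library gave 1692 to 2004. Of the genes in the lists around the gamma chain, marker lists left out, 39 were called, 9 with a 2-fold limit. Of 341 values of 31 named genes under the alternatives, 311 kept direction and call, 20 lost the call and 10 turned sign. The turned values belong to genes never called: TRBC1 was 0.033 with quantile scaling and -0.169 to 0.183 without 1 library, VPS41 was -0.010 with quantile and -0.016 with median-of-ratios scaling and -0.156 to 0.089 without 1 library, and without 1 library YAE1 was -0.215 to 0.066 and RALA -0.073 to 0.018. The replicate block changed the call of PTCRA alone among these 31 genes. Without the filter the calls of TRBC2, CD3D, PTCRA and RAG2 were lost, and with median-of-ratios scaling that of CD3D. Of 108 counts of called genes per list, marker lists left out, 92 stayed close to the reported count. The other 16 moved further, 7 of them under the 2-fold limit. IKZF1 stayed higher and called under every alternative but the 2-fold limit, which its log2 difference of 0.89 does not reach. For the sharing between like segments and for TRGV1, the few fragments limit what can be resolved.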

Other observations

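Variable segments of the other receptor loci put the gamma levels in scale. Of 126 alpha, beta and delta variable segments in the tables, 7 had a mean FPKM of at least 1, and 3 of them stood above TRGV2. These were TRBV20-1 at 2662 to 3239 FPKM in WT and 3091 to 3642 in IK-KO, TRBV10-3 at 257 to 310 and 226 to 302, and TRBV7-2 at 21.2 to 24.7 and 34.1 to 41.3, named after their values were seen. TRBV7-2 rose by 0.68 ± 0.10 (SE, limma adjusted p = 0.00368) and TRBV20-1 and TRBV10-3 were not called. Among the 4 lower segments, TRAV1-1 fell by 1.21 ± 0.28 (SE, limma adjusted p = 0.0229) and TRBV13 fell by 1.39 ± 0.34 (SE, limma adjusted p = 0.0302), also named after their values were seen, and TRBV18 and TRBV19 were not called. Within 5 megabases of the members on chromosome 7, 21 other genes were tested, of which 3 were called higher and 1 lower, with a median log2 difference of 0.09 against 0.02 for all 651 tested genes of the chromosome.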
